A study of Mus musculus with 28 samples.

Results

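Replication-dependent histone genes were examined in nascent RNA from mouse embryonic stem cells (mESCs). They were taken as every gene whose symbol starts with Hist1h, Hist2h, Hist3h or Hist4h, which gave 69 of the 24984 genes listed. RPKM stands for reads mapped to a gene, scaled by its length in kilobases and by the size of the library. Of the 69 genes, 49 had a mean above 0.5 RPKM over the 4 libraries of at least 1 condition and are described below: 6 of 6 H1 genes, 11 of 19 H2a, 13 of 19 H2b, 8 of 12 H3 and 11 of 13 H4. The other 20 stayed below that limit, and 5 of them (Hist1h2ao, Hist1h2ap, Hist1h2bq, Hist1h2br and Hist1h4m) were listed at 0 in all 12 libraries. The genes lie on chromosome 13 (55 genes), chromosome 3 (10), chromosome 11 (3) and chromosome 6 (1), and RefSeq on GRCm38 held an entry for each of the 69. It lists Hist1h2al and Hist3h2bb-ps, both below the limit, as transcribed pseudogenes.

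Nascent RNA was labelled with 2 mM 5-bromouridine (BrU) and immunopurified, an assay called Bru-seq. The mESCs, wild type (WT) or EloA null, are named CCE28 in the growth protocol and CJ7 in the treatment protocol of the labels. They were grown on feeder fibroblasts in LIF with 2 inhibitors (PD0325901 and CHIR99021), and the feeders were removed by plating before labelling. Each genotype gave 2 libraries in each of 3 conditions: steady state (BrU for 10 min), and recovery from 60 min of 1 µM flavopiridol, a P-TEFb inhibitor that stops productive elongation, with BrU for 5 min (5-min recovery) or 10 min (10-min recovery) after its removal. The methods describe duplicates as independent experiments and the labels name no cultures. Each genotype was 1 cell line, so p-values measure only the spread between experiments on that line. Another 16 samples of the series, from ChIP-seq and CUT&RUN-seq, were not analysed here.

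Eloa, the targeted gene, was not lower in nascent RNA where the labels say null. It had 1.18 and 1.16 RPKM in WT and 1.96 and 1.89 RPKM in the libraries labelled EloA null in steady state, 2.96 and 2.82 against 5.14 and 6.25 RPKM in 5-min recovery, and 4.65 and 6.51 against 8.74 and 8.93 RPKM in 10-min recovery. Nascent RNA of Eloa was thus higher in all 6 libraries labelled EloA null, whose groups are named below as labelled. Reads were counted over the whole gene, and the part deleted in these cells is not given in the sources used here. Nascent RNA of the gene does not measure EloA protein. The paper used the null cells as the specificity control for EloA CUT&RUN-seq. It reports that their signal at Rn45s, a ribosomal RNA gene, was near background. The title of the first steady-state EloA null library goes against its genotype label, which reads wild type, and the title was followed. Library sizes worked out from the steps between RPKM values ran from 9857527 to 28547356 reads, and the histone genes took 1459 to 6149 reads of a library. Stem cell markers were plentiful (Zfp42 at 80.6 and Nanog at 22.8 mean steady-state RPKM). The 8 feeder fibroblast markers summed to 1.22 to 3.60 RPKM in every library, led by Col1a1 at 0.48 and Col1a2 at 0.44 mean steady-state RPKM.

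Histone genes are short, lie in clusters and are transcribed mostly in S phase, when new DNA is packed into nucleosomes. H2A, H2B, H3 and H4 form the nucleosome core and H1 binds the linker DNA between nucleosomes. Their mRNAs carry no poly(A) tail but end just past a conserved stem-loop, which is bound by SLBP and cut with the help of the U7 snRNP. NPAT, a target of cyclin E and CDK2, switches the clusters on, with OCT1 at H2b promoters and HINFP at H4 promoters. Since these mRNAs lack a tail, depletion of mature mRNA with oligo(dT), as done here before immunopurification, would not remove them.

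The stem-loop marks where a histone transcript ends. A 16-base stem-loop of the known form was found in 64 of the 69 genes, within the RefSeq gene or up to 150 bases to either side. It ended 1861 to 13623 bases before the RefSeq end in Hist1h2bc, Hist1h2be, Hist1h2bp, Hist1h2bq and Hist1h2br, and 428 bases before it in Hist1h3e. Among the 49 described genes it was found in 46, the exceptions being Hist1h3g, Hist1h4a and Hist2h2be. There were 6 versions. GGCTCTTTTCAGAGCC occurred in 41 genes and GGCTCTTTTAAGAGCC in 9. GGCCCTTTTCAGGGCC occurred in 8 genes, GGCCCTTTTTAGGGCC in 2 and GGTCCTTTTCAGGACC in 2, all of them H4 genes, while no H4 gene held the 2 commonest forms. GGCTCTTTTTAGAGCC was found in 1 H2a and 1 H2b gene. The H2b gene, Hist1h2bn, held 2 stem-loops, of which only the last, past the RefSeq end, is counted here. The stem-loop of the most abundant gene of each class is printed below from the RefSeq genome of GRCm38, with the 16 bases in capitals and their position.
Hist1h1b, chr13:21779837-21779852, minus strand: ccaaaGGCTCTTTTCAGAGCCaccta
Hist3h2a, chr11:58955172-58955187, plus strand: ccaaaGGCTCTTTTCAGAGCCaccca
Hist1h2bg, chr13:23571843-23571858, plus strand: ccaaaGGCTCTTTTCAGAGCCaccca
Hist1h3e, chr13:23561903-23561918, minus strand: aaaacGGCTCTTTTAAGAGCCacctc
Hist1h4i, chr13:22040966-22040981, minus strand: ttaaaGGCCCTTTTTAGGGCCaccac

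The promoters of the same 5 genes are shown because the classes differed in the short motifs they held. Each stretch runs from 120 bases before the RefSeq start to 10 after it, 5′ to 3′ on the gene's strand, from RefSeq on GRCm38. Capitals mark CCAAT, ATTTGCAT (the octamer), AAACACA and GGTCC on either strand, and TATAAA or TATATA on the gene's strand, and a motif that crosses the edge is shown in part.
Hist1h1b, chr13:21780616-21780745, minus strand: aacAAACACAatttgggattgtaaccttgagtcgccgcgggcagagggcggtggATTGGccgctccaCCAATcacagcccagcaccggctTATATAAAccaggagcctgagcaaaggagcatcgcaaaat
Hist3h2a, chr11:58954565-58954694, plus strand: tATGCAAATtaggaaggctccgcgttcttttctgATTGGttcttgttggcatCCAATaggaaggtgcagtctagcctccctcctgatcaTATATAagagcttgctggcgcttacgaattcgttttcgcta
Hist1h2bg, chr13:23571280-23571409, plus strand: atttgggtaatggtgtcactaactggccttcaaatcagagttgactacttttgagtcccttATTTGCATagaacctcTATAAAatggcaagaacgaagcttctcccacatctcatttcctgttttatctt
Hist1h3e, chr13:23562376-23562505, minus strand: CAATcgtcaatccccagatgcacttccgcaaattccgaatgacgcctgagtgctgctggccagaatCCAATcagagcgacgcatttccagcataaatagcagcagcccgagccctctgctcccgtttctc
Hist1h4i, chr13:22041353-22041482, minus strand: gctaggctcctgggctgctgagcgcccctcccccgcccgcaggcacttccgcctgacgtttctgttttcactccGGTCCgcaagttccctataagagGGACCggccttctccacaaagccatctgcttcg

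Over the whole RefSeq promoter window of 300 bases, 44 of the described genes had an entry. CCAAT was in all 34 H1, H2a, H2b and H3 promoters but in 3 of 10 H4 promoters, against 37.4% of all 32851 promoters. The octamer, which OCT1 binds, was in 6 of 11 H2a and 5 of 11 H2b promoters and in none of the H1, H3 or H4 promoters, against 1.74% of all. AAACACA, an element known from H1 promoters, was in 5 of 6 H1 promoters, against 7.18% of all. GGTCC was in 9 of 10 H4 promoters, against 45.5% of all, and TATAAA in 21 of the 44, against 8.32%. H2a and H2b genes often share one window, since 13 pairs of them start back to back. In the 8 such pairs with both genes described, the starts lay 164 to 249 bases apart, and the H2b gene had the higher mean steady-state RPKM in 8 of 8. In 1 of these pairs the H2b gene is Hist1h2bc, whose value was taken over an intron and not over the histone message, so that pair compares unlike regions. Hist1h2bg had 9.37 mean RPKM and its partner Hist1h2ae 0.684. Hist1h2bn (1.92) and Hist1h2ak (1.74) lay within the spread, with Hist1h2ak the higher one in both second libraries. In recovery the order did not hold in every pair. Hist1h2ak had the higher mean at 5 min (4.29 against 2.76 RPKM). Hist1h2ad was above Hist1h2bf at 10 min (1.99 against 0.984 RPKM).

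Only uniquely aligned reads were kept by the authors, which bears on genes that are near copies of each other. For each gene the share of 50-base windows that occur once in the genome was computed. The median share was 50.0% in the 49 described genes and 16.4% in the other 20. Where the share is small, low values cannot be told apart from reads lost to copies. The share was not small in all of the 20. It was 66.1% to 100% in Hist1h2aa, Hist1h2al, Hist1h2ba, Hist1h2be, Hist2h2ab, Hist3h2ba and Hist3h2bb-ps. Among the genes listed at 0 in every library, the share was 0% in Hist1h2ao, Hist1h2ap, Hist1h2bq and Hist1h2br and 10.1% in Hist1h4m. For Hist1h2be, Hist1h2bq and Hist1h2br the share was taken over 1500 bases. By class, the median share was 90.5% in H1, 38.7% in H2a, 51.6% in H2b, 35.6% in H3 and 52.6% in H4. Levels of different histone genes are therefore given as listed, and whether this share plays a part in the order of genes within a class was not tested.

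In steady state, Hist1h2bg, an H2b gene, and Hist1h4i, an H4 gene, had the highest mean levels, at 9.37 and 9.21 RPKM. Their order lies within the spread, since Hist1h4i was the higher one in both first libraries. Hist1h2bg had 4.33 and 12.3 RPKM in the 2 WT libraries and 5.22 and 15.6 RPKM in the libraries labelled EloA null. The second library was the higher one in both genotypes, and the groups overlapped. Hist1h4i had 7.58 and 8.44 RPKM in WT and 8.58 and 12.2 RPKM in the libraries labelled EloA null. Among H4 genes Hist1h4d (4.83 mean RPKM over the 4 libraries) and Hist1h4a (4.17) came next, and the libraries of Hist1h4d (3.41 to 5.83 RPKM) and Hist1h4a (2.47 to 6.05 RPKM) overlapped. Hist2h2bb, the next H2b gene, had 6.54 and 5.96 RPKM in WT and 5.08 and 7.76 RPKM in the libraries labelled EloA null. Hist1h2bp had 3.41 mean RPKM.

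The leading H1 genes came close to each other. Hist1h1b had 5.80 and 5.82 RPKM in WT and 4.08 and 5.72 RPKM in the libraries labelled EloA null, Hist1h1c had a mean of 4.57 and Hist1h1a of 4.47 RPKM, and these 3 did not differ beyond their spread. Hist1h1d had a mean of 3.07 RPKM. Hist1h1e, at 1.07 to 1.65 RPKM, lay below every library of Hist1h1b, and Hist1h1t, the testis linker histone, had 0.114 to 0.341 RPKM. H3 genes were led by Hist1h3e, with 1.60 and 3.51 RPKM in WT and 1.75 and 7.31 RPKM in the libraries labelled EloA null, followed by Hist1h3g (2.71 mean RPKM) and Hist1h3d (2.53). The leading H2a genes came lowest by mean level, with Hist3h2a (2.29 mean RPKM), Hist1h2ab (1.76) and Hist1h2ak (1.74). Hist3h2a overlaps Trim17, and reads of the overlap may be shared.

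**Figure D1:**
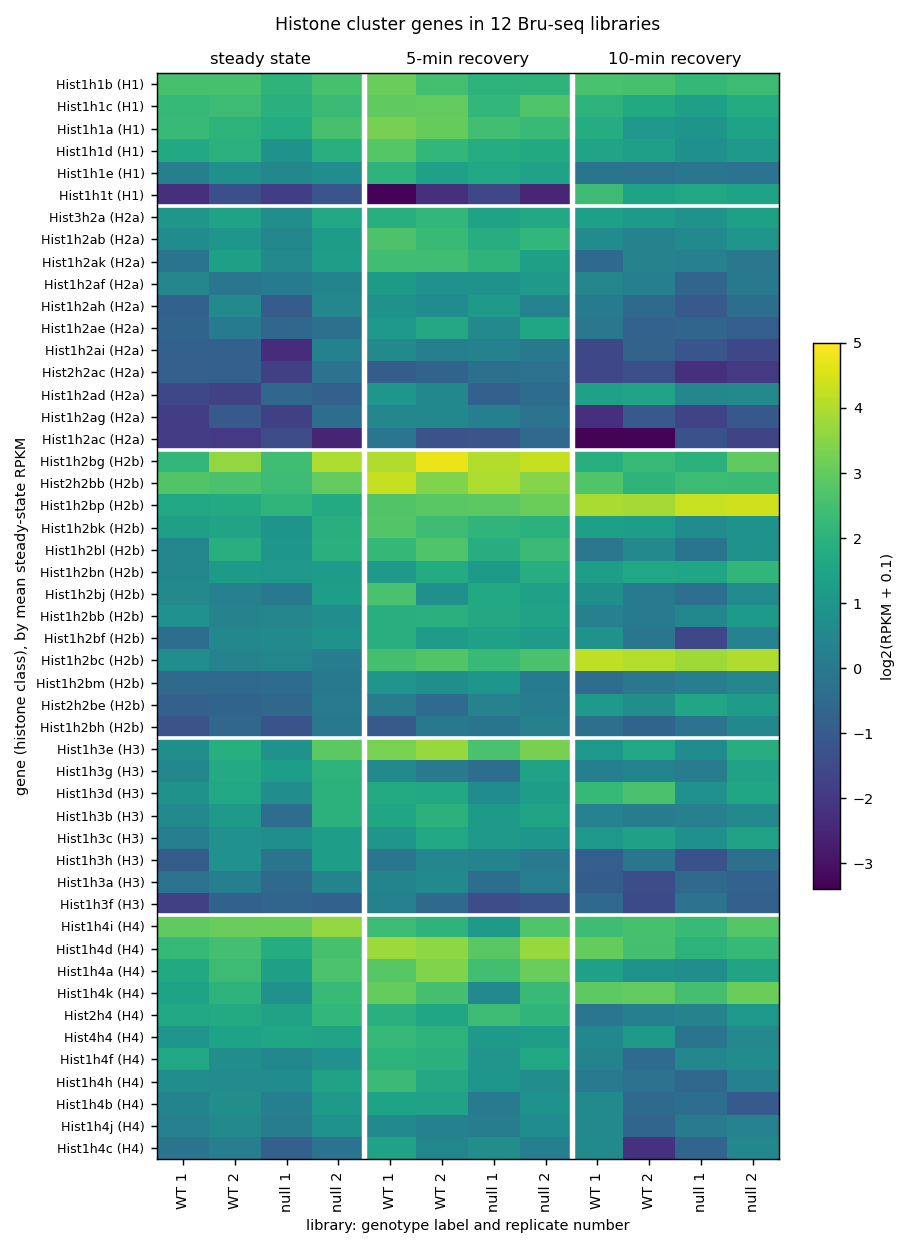
Level of the 49 described histone genes in the 12 libraries, as log2(RPKM + 0.1), with 1 row per gene ordered by class and mean steady-state RPKM and 1 column per library. Most genes are brightest in the 5-min recovery columns, while Hist1h2bc and Hist1h2bp are brightest in the 10-min columns, where they reach 13.9 to 21.1 RPKM.

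Not all of the described genes were measured over the histone message. For Hist1h2bc and Hist1h2bp, the RPKM values stood for whole reads only with the length of an annotated intron plus 1 base on each side (7556 and 1134 bases). These introns, chr13:23684622-23692175 and chr13:21787892-21789023, start 25 and 31 bases before the stem-loop, and 99.5% and 95.8% of their bases lie past it. The values of this pair therefore count RNA from beyond the usual end of the transcript. The undescribed Hist1h2be was measured over an intron in the same way. Of the other 47 described genes, 38 gave whole reads over the whole RefSeq gene, and 9 over a length found by search.

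During 5-min recovery most histone genes stood above their steady-state level. In WT, Hist1h2ab had 6.23 and 4.69 RPKM against 1.49 and 1.99 in steady state, and Hist1h2bg had 15.7 and 26.7 against 4.33 and 12.3. Hist2h2bb had 19.1 and 10.6 RPKM against 6.54 and 5.96. In these 3 genes both WT libraries of the recovery stood above both of steady state. The 3 conditions were deposited in separate tables and each library is relative to its own total, so the levels are set side by side with no test. Both recovery times are set against the same steady-state libraries.

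Over the 43 histone genes above 0.5 RPKM in steady state, the median ratio of 5-min recovery to steady state was 2.01 in WT, with 41 genes above 1, and 1.51 in the libraries labelled EloA null, with 32 above 1. Over all 11003 genes above that limit the median ratios were 0.629 and 0.565, and 28.1% and 25.7% of genes were above 1. Over 136 other short genes of 1 exon (300 to 3000 bases, protein-coding) they were 0.919 and 0.813. By class, the WT median was 1.60 for H1, 2.55 for H2a, 2.38 for H2b, 1.44 for H3 and 1.91 for H4, and that of the libraries labelled EloA null 1.22, 1.82, 1.69, 0.941 and 0.939. All 4 libraries of 5-min recovery stood above all 4 of steady state for 17 of the 49 genes, against 16.4% of the 11595 genes above the limit in any condition, and below for 1 gene, against 55.0%. That gene was Hist1h4i, with 5.03 and 4.11 RPKM in WT and 2.08 and 6.32 in the libraries labelled EloA null after its steady-state 7.58 to 12.2. Of the 17 genes, Hist1h2ac (0.165 mean steady-state RPKM) and Hist1h2ag (0.355) passed the limit of 0.5 RPKM only in 5-min recovery. Their place in the count thus follows in part from that limit, which was also used for the 11595 genes.

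By 10-min recovery most histone genes were back at or below the steady-state level, with median ratios of 0.785 in WT and 0.668 in the libraries labelled EloA null, against 1.02 and 1.03 over all 11003 genes and 1.03 and 1.05 over the other short genes. All 4 libraries stood above all 4 of steady state for 7 of the 49 genes, against 37.2% of all genes, and below for 5, against 30.8%. The 5 were Hist1h1e, Hist1h3a, Hist1h4h, Hist1h4i and Hist2h4. Hist2h4, for example, had 0.830 and 1.06 RPKM in WT and 1.17 and 2.01 in the libraries labelled EloA null, after 2.59 to 4.38 in steady state. The mean over the 4 libraries was higher at 10 than at 5 min for 11 of the 49 genes. This count was not made over all genes. Their median ratios to steady state, in WT and in the libraries labelled EloA null, were 0.629 and 0.565 at 5 min and 1.02 and 1.03 at 10 min.

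The 7 genes that stood above were Hist1h1t, Hist1h2ad, Hist1h2bc, Hist1h2bn, Hist1h2bp, Hist1h4k and Hist2h2be. Among them, Hist1h1t (0.231 mean steady-state RPKM) and Hist1h2ad (0.367) passed the limit of 0.5 RPKM only in recovery. Their place in the count thus follows in part from that limit. The 7 genes start between 718 bases (Hist2h2be) and 102230 bases (Hist1h2bc) past the end of the nearest histone gene upstream on their strand. For Hist1h2bn and Hist1h2bp this distance is 18620 and 32930 bases. Among the genes that did not stand above, it is 636, 753 and 769 bases for Hist1h4a, Hist1h3b and Hist1h3h. Whether the distance plays a part was not tested. Hist1h2bc, counted past its stem-loop, had 1.02 to 1.53 RPKM in steady state, 4.65 to 6.52 at 5 min and 13.9 to 18.1 at 10 min. Hist1h1t starts 3331 bases past the end of Hist1h2bc on the same strand, and had 0.00 to 0.228 RPKM at 5 min but 5.06 and 2.65 RPKM in WT and 2.93 and 2.67 in the libraries labelled EloA null at 10 min. Hist1h2bp, also counted past its stem-loop, went from 2.99 to 4.15 RPKM in steady state to 14.4 to 21.1 at 10 min. Hist1h2ad lies 2518 bases past the end of Hist1h2bg on its strand, and Hist1h4k 2824 bases past Hist1h2ak. Hist2h2be, a gene of 2667 bases with no stem-loop of the searched form at its end, had 0.471 to 0.912 RPKM in steady state and 1.58 to 2.85 at 10 min. Reads that begin in the gene upstream cannot be told apart from reads of the gene itself in these tables.

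**Figure D2:**
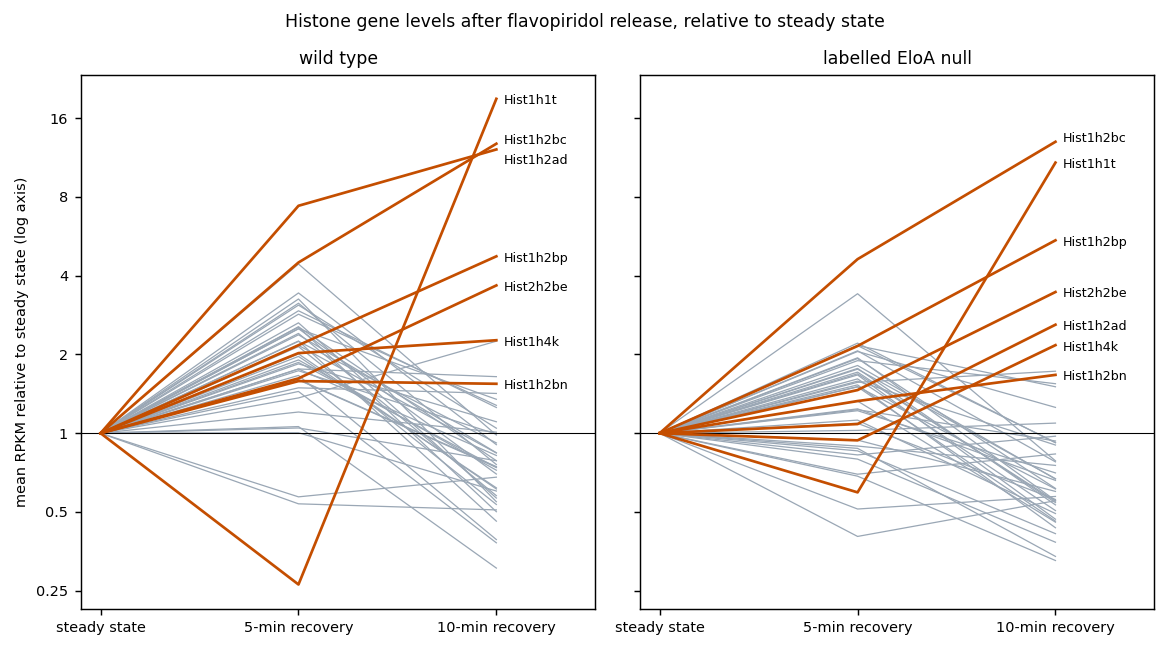
Mean RPKM of 2 libraries in 5-min and 10-min recovery relative to the steady-state mean of the same genotype label, on a log axis, for the 43 histone genes above 0.5 RPKM in steady state plus Hist1h1t and Hist1h2ad, which lie under that limit there. The 7 genes in colour had all 4 libraries of 10-min recovery above all 4 of steady state, and most grey lines go up at 5 min and end below 1 at 10 min.

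The summed RPKM of the 49 genes was highest by mean in 5-min recovery for both genotype labels. It was 91.9 and 121.7 in WT and 85.1 and 151.7 in the libraries labelled EloA null in steady state, 219.7 and 207.9 against 150.5 and 177.3 in 5-min recovery, and 133.4 and 121.0 against 106.9 and 139.0 in 10-min recovery. Both WT libraries were above both libraries labelled EloA null at 5 min, and the genotypes overlapped in steady state and at 10 min. Hist1h2bc and Hist1h2bp made up much of the 10-min sum: without them it was 100.1 and 90.1 in WT and 73.6 and 102.1 in the libraries labelled EloA null. Over the 49 genes the ratio of the mean 10-min sum to steady state was 1.19 in WT and 1.04 in the libraries labelled EloA null. Without these 2 genes it was 0.929 and 0.774. With 2 libraries against 2, the smallest p of an exact two-sided permutation test is 0.333, so no p is given for a sum.

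**Figure D3:**
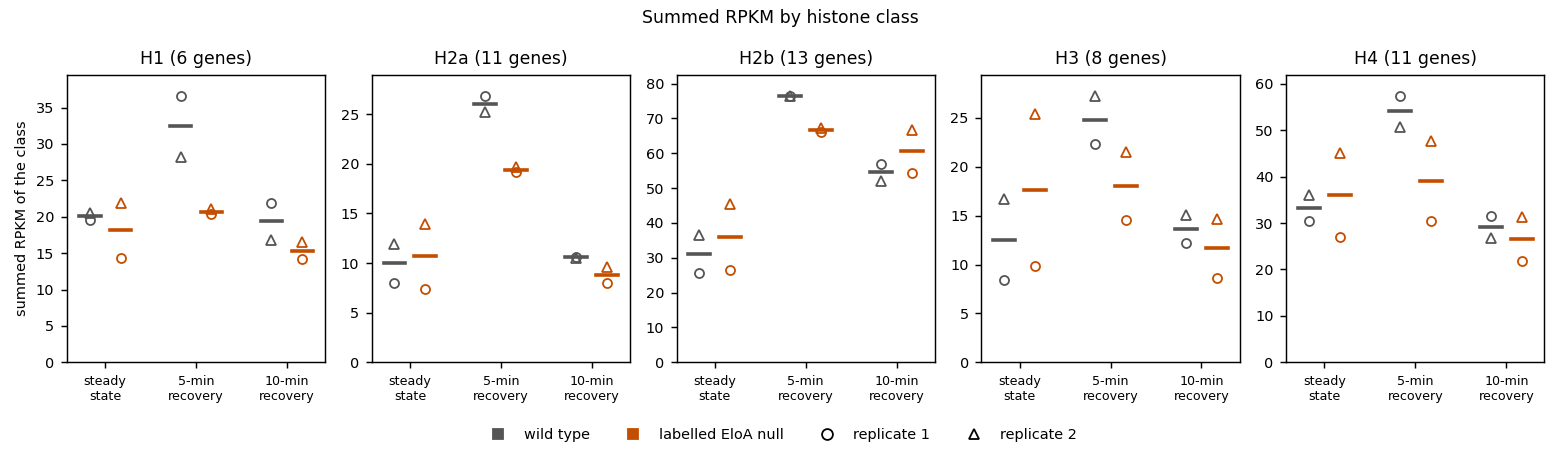
Summed RPKM of each histone class in each library (open symbols, with the shape giving the replicate number) and the mean of 2 libraries (bars), by condition and genotype label, each axis from 0. In 5-min recovery both WT libraries lie above both libraries labelled EloA null in all 5 classes, while in steady state the replicate 2 libraries lie above the replicate 1 libraries of the same label.

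The comparison of genotypes asked whether loss of EloA, a subunit of the Elongin elongation factor, changes nascent histone RNA. In steady state no difference was found. Of 43 histone genes tested, 0 passed an adjusted p of 0.05 in limma, with 0.00% of the 11003 genes tested passing. At an unadjusted p under 0.05, 0 were lower and 0 higher, against 4.10% lower and 13.8% higher of all genes. The value was below 0 in 18 of 43, against 44.2% of all, and the median log2 difference (EloA null minus WT) was 0.09, against 0.03 over all genes and 0.20 over the other short genes. Its sign turned on single libraries: of the libraries labelled EloA null, leaving out the second gave -0.34 and leaving out the first 0.50, and leaving out the first WT library gave -0.10. Without the second library labelled EloA null 9 genes were lower at the unadjusted p, against 3.14% of all genes, and 34 of 43 values were below 0, while without the first 5 of 43 were.

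The genes with the largest steady-state differences and a mean of 20 reads or more were, above, Hist1h3e (log2 difference 0.58 ± 0.76 SE, adjusted p = 0.724 in limma), Hist1h3g (0.58 ± 0.49 SE) and Hist1h3c (0.50 ± 0.28), and, below, Hist1h1d (-0.46 ± 0.36), Hist1h1b (-0.26 ± 0.18) and Hist1h2bc (-0.23 ± 0.17). None of these passed the test, and only in Hist1h1b did the groups not overlap. A single gene, Hist1h2bf, was 1.57-fold higher with no overlap, against 5.52% of all genes, and 0 were lower by 1.5-fold with no overlap, against 1.23%. It had 0.680 and 1.33 RPKM in WT and 1.40 and 1.74 in the libraries labelled EloA null, with an adjusted p of 0.365 in limma.

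The spread in steady state followed the replicate number. The second library was above the first for 38 of the 49 genes in WT and for 43 in the libraries labelled EloA null, against 36.0% and 44.9% of the 11003 genes. Hist1h3h had 0.429 and 1.69 RPKM in WT and 0.797 and 2.35 in the libraries labelled EloA null, and Hist1h2bl 1.26 and 3.57 against 1.91 and 3.73. The summed level of 15 S phase genes went the other way, at 122.0 and 113.8 RPKM in WT and 130.6 and 121.5 in the libraries labelled EloA null, as did that of 12 genes of G2 and mitosis (92.2 and 84.4, then 93.9 and 86.2). Their part in the spread of the histone genes was not tested. In bulk RNA, fewer cells in S phase and less histone RNA per cell cannot be told apart.

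In 5-min recovery, histone genes of all classes had lower values in the libraries labelled EloA null, though no gene passed the adjusted p. Hist1h1a had 9.67 and 7.95 RPKM in WT and 5.41 and 4.82 in the libraries labelled EloA null (log2 difference -0.77 ± 0.19, adjusted p = 0.416 in limma), on 48 to 75 reads a library. Hist1h1b had 8.43 and 5.57 RPKM against 4.02 and 4.08 (-0.74 ± 0.24). Hist1h4k, an H4 gene, had 7.94 and 5.60 against 1.44 and 4.67 (-1.32 ± 0.55), the value of 1.44 resting on 7 reads. In these 3 genes, those with the lowest values among genes of 20 reads or more, both WT libraries stood above both of the others.

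Of the 48 histone genes tested in 5-min recovery, 0 passed an adjusted p of 0.05 in limma, and 0.00% of the 8551 genes tested did. At an unadjusted p under 0.05, 13 were lower, against 4.58% of all genes, and 0 higher, against 4.44%. These were Hist1h1a, Hist1h1b and Hist1h1d of H1, Hist1h2ad, Hist1h2ak and Hist3h2a of H2a, Hist1h2bk of H2b, Hist1h3d and Hist1h3f of H3, and Hist1h4b, Hist1h4f, Hist1h4h and Hist4h4 of H4. The value was below 0 in 39 of 48, against 59.0% of all. With a 1.5-fold ratio and no overlap between the groups, 13 were lower, against 4.25% of all genes, and 1 (Hist2h2ac, 1.55-fold) higher, against 3.87%. The median log2 difference was -0.35, against -0.06 over all genes and 0.03 over 124 other short genes of 1 exon. It stayed below 0, between -0.48 and -0.28, with every library left out in turn and under every other setting run. The count of 13 at the unadjusted p was smaller without the first WT library and without the first library labelled EloA null. The share of all genes was smaller in these settings too.

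By class, the median log2 difference at 5 min was -0.73 for 5 H1 genes (5 below 0), -0.31 for 11 H2a genes (9 below 0), -0.21 for 13 H2b genes (9), -0.50 for 8 H3 genes (6) and -0.48 for 11 H4 genes (10). The summed level of H1 genes was 36.6 and 28.3 RPKM in WT and 20.4 and 21.0 in the libraries labelled EloA null, a ratio of 0.638. It was 0.746 for H2a, 0.872 for H2b, 0.727 for H3 and 0.722 for H4. The gap between the groups was narrowest for H3, with 22.3 and 27.3 RPKM against 14.5 and 21.5.

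Some histone genes had higher values at 5 min. Hist1h2bp, counted past its stem-loop, had 6.44 and 7.10 RPKM in WT and 7.33 and 8.63 in the libraries labelled EloA null (log2 difference 0.23 ± 0.18). Hist2h2be had 0.989 and 0.622 against 1.16 and 0.999 (0.41 ± 0.25). Hist2h2bb, next in order among genes of 20 reads or more but with a value below 0, had 19.1 and 10.6 against 15.5 and 11.0 (-0.12 ± 0.35), and its groups overlapped. Hist1h2bc, also counted past its stem-loop, had 5.65 and 6.52 against 4.65 and 5.91 RPKM (-0.21 ± 0.20), with overlap.

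Other genes of the libraries moved beside the histone genes at 5 min. The feeder fibroblast markers summed to 1.99 and 2.34 RPKM in WT and 1.52 and 1.22 in the libraries labelled EloA null, and 7 of 8 stem cell markers had values below 0 (summed level 201.3 and 235.8 against 148.7 and 209.0 RPKM). The 15 S phase genes overlapped between genotypes, with 86.7 and 84.9 against 80.4 and 88.6 RPKM. Their part in the lower histone values was not tested.

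**Figure D4:**
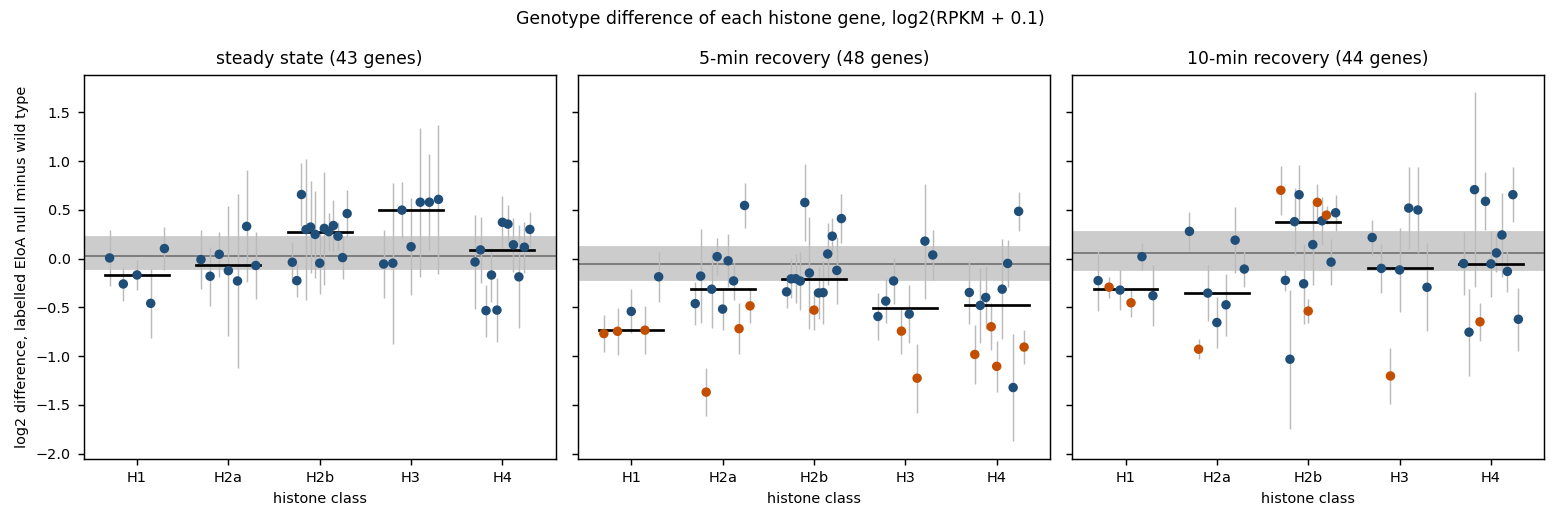
Log2 difference (labelled EloA null minus WT) of each histone gene tested, with its standard error, by class in the 3 conditions. Points in orange have an unadjusted p under 0.05 (none passed the adjusted p), black bars are class medians, and the grey band and line give the quartiles and the median of all genes tested; at 5 min 39 of 48 points lie below 0.

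In 10-min recovery the histone genes differed among themselves. Of 44 tested, 0 passed an adjusted p of 0.05 in limma, and 0.00% of the 9867 genes tested did. At an unadjusted p under 0.05, 6 were lower, against 5.08% of all genes, and 3 higher, against 14.8%. The value was below 0 in 25 of 44, against 41.8% of all. The median log2 difference was -0.08, against 0.06 over all genes and 0.32 over 129 other short genes. It turned to 0.03 without the first WT library and to 0.21 without the first library labelled EloA null. The latter setting also left fewer genes lower at the unadjusted p, among histone genes and among all genes.

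With a 1.5-fold ratio and no overlap, 4 histone genes were lower at 10 min, against 1.85% of all genes, and 4 higher, against 7.49%. The lower ones were Hist1h2ad, Hist1h2af, Hist1h3d and Hist1h4d, and the higher ones Hist1h2bb, Hist1h2bh, Hist1h2bm and Hist2h4. Hist1h3d had 4.53 and 5.94 RPKM in WT and 1.69 and 2.85 in the libraries labelled EloA null (log2 difference -1.20 ± 0.28, adjusted p = 0.161 in limma). Hist1h2ad, which ends 848 bases before the start of Hist1h3d on the same strand, had 2.58 and 2.71 against 1.31 and 1.37 (-0.93 ± 0.10, adjusted p = 0.0971). Hist1h4d, 5302 bases past the end of Hist1h3d on that strand, had 7.94 and 5.67 against 3.95 and 4.57 (-0.65 ± 0.19, adjusted p = 0.201). These 3 neighbours thus had WT libraries above the others, in values that did not pass the adjusted p. Hist1h2bg, the nearest histone gene upstream of Hist1h2ad on that strand, did not share this. It had 3.66 and 4.69 RPKM in WT and 3.89 and 7.55 in the libraries labelled EloA null (0.38 ± 0.34, with overlap).

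The highest values at 10 min among genes of 20 reads or more belonged to Hist2h2be, Hist1h2bp and Hist1h2bn. Hist2h2be had 2.07 and 1.58 RPKM in WT and 2.85 and 2.27 in the libraries labelled EloA null (log2 difference 0.47 ± 0.19), Hist1h2bp 15.2 and 14.4 against 19.3 and 21.1 (0.45 ± 0.09, adjusted p = 0.145 in limma), and Hist1h2bn 2.34 and 2.95 against 2.79 and 4.31 (0.39 ± 0.24, with overlap). Hist1h2bc, the other gene counted past its stem-loop, had 18.1 and 16.5 against 13.9 and 15.7 RPKM (-0.22 ± 0.11). H2b was the class with a median above 0, at 0.38 over 13 genes, while H1 stood at -0.31, H2a at -0.35, H3 at -0.10 and H4 at -0.05.

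The difference of the genotype effect between conditions was tested directly. For 5-min recovery minus steady state, 0 of 46 histone genes passed the adjusted p in limma, against 0.0878% of 10255 genes. At an unadjusted p under 0.05, 3 were lower (Hist1h2ad, Hist1h4h and Hist4h4), against 3.97% of all, and 0 higher, against 0.770%. The median was -0.40, against -0.10 over all genes, and it ran from -0.87 without the first to -0.08 without the second steady-state library labelled EloA null. The median stayed below 0 with each of the 8 libraries left out in turn, over histone genes and over all genes. Since each of these settings leaves 1 library in a group, no count at the unadjusted p is given for them here. For 10-min recovery minus steady state, 0 of 44 passed, against 0.00936% of 10683 genes, and at an unadjusted p 1 (Hist1h2ad) was lower, against 1.23%, and 0 higher, against 1.49%, with a median of -0.08 that ran from -0.53 without the first to 0.21 without the second steady-state library labelled EloA null.

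In the comparisons of genotypes no gene of any kind passed the adjusted p (0.00% in each condition), and neither did genes that act on histone expression, so their counts say nothing particular to them. Of 8 genes of histone gene transcription (led by Pou2f1 at 4.76 and Ccne2 at 3.88 mean steady-state RPKM), 0 passed the adjusted p in limma in any of the 3 conditions. The same held for 12, 11 and 13 tested genes of histone mRNA 3′ end formation in steady state, 5-min and 10-min recovery (led by Srrt at 5.76 and Cstf2 at 4.15 RPKM), and for 9 genes of histone deposition (Asf1a at 8.80 and Rbbp4 at 6.52). Slbp, which encodes the stem-loop binding protein, had 2.46 mean RPKM. At 5 min the medians of these 3 lists were -0.14, -0.07 and -0.15, against -0.06 over all genes. For S phase genes (Mcm7 at 18.2 and Pcna at 15.1) the 5-min median was -0.05, and for G2 and mitosis (Ccnb1 at 18.3 and Cdk1 at 15.2) -0.01, with 0 passing in either list.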

How the data were processed

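Nascent RNA of WT and EloA null mESCs was measured by paired-end Bru-seq in 12 libraries, 2 per genotype and condition. The authors aligned reads to mm10 and dm3 with Bowtie2 2.3.4.3, kept uniquely aligned reads with SAMtools, counted reads in RefSeq genes with featureCounts 1.6.1 and deposited RPKM values from edgeR in 3 tables, 1 per condition. The RefSeq release, the use of strand in counting and any scaling between tables are not given in the sources used here. The columns of group means were not used, and the Drosophila RNA added as a spike was not analysed here.

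Genes with a mean above 0.5 RPKM over the 4 libraries of a table were tested with limma 3.58.1 in R 4.3.3 on log2(RPKM + 0.1) with an intensity trend, two-sided, with Benjamini-Hochberg adjustment over all genes tested, and a 1.5-fold ratio of means with no overlap was a second rule. Such log2 differences understate changes of low genes. The change of the genotype effect between conditions was an interaction over 8 libraries, in which a scaling between tables cancels. Summaries used Python 3.11.15, pandas 2.3.3, numpy 2.4.6 and matplotlib 3.10.9. The fits were tested on simulated data.

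Reads and library sizes were worked out from RPKM and gene length: in each library 89.6% to 91.3% of 1146 to 1635 genes of 1 exon gave whole reads within 0.01. Since lengths differed for the other genes, no count test was run. The median of a described gene's mean reads was 23.3, 17.5 and 13.8 in steady state, 5-min and 10-min recovery, which sets the precision, and intervals between replicates rest on 2 libraries.

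The members and gene lists were chosen with earlier results of these data known. The genes named are the 3 of each class with the highest mean steady-state RPKM and, per comparison, the 3 highest and 3 lowest log2 differences among genes with a mean of 20 reads or more. Any other histone gene named was chosen after its values were seen. Sequences are from RefSeq on GRCm38, where 62 of the 69 genes had a promoter entry, and introns from GENCODE M21. Replicate numbers give only 2 pairs per comparison and no label ties them to a shared day, so they were not used as a block.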

Additional observations from a re-analysis of the deposited data

Results flagged for a closer look

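The genotype difference pointed in opposite directions in steady state and in recovery for Hist1h2ad, an H2a gene, and Hist4h4, an H4 gene on chromosome 6. In both genes each library labelled EloA null stood above each WT library in steady state and below in recovery at 5 min. Hist1h2ad had 0.235 and 0.201 RPKM in WT and 0.565 and 0.468 in the libraries labelled EloA null in steady state, 1.90 and 1.33 against 0.471 and 0.649 in 5-min recovery, and 2.58 and 2.71 against 1.31 and 1.37 in 10-min recovery. The change of the genotype effect was -2.32 on the log2 scale from steady state to 5-min recovery (SE 0.32, adjusted p = 0.124 in limma over 10255 genes) and -1.88 to 10-min recovery (SE 0.17, adjusted p = 0.116 over 10683 genes), so neither passed. The steady-state values of Hist1h2ad rest on 3 to 7 reads a library and those of 5-min recovery on 3 to 10. Hist4h4 had 1.91 and 2.69 RPKM in WT and 2.85 and 2.77 in the libraries labelled EloA null in steady state, then 4.62 and 3.96 against 2.10 and 2.37 in 5-min recovery, a change of -1.21 (SE 0.25, adjusted p = 0.49 in limma), which did not pass either. Both steady-state and recovery comparisons at 5 and 10 min share the steady-state libraries.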

How the results depend on the processing

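The lower values in 5-min recovery kept their direction in every setting run, with a median between -0.48 and -0.28. With 1 library left out at a time, the median over histone genes ran from -0.34 to 0.50 in steady state, from -0.33 to 0.21 in 10-min recovery, from -0.87 to -0.076 for the change of the genotype effect at 5 min and from -0.53 to 0.21 at 10 min. Hist1h3g was -0.053 in steady state without the first WT library (range -0.053 to 1.21), Hist1h1d 0.050 without the first library labelled EloA null (-0.97 to 0.050) and Hist1h3e -0.42 without the second (-0.42 to 1.58). Hist2h2bb at 5 min was 0.30 without the first WT library and 0.12 without the second library labelled EloA null (-0.55 to 0.30). The cause of these reversals was not tested.

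With the replicate number as a block, 2 histone genes passed the adjusted p in limma in 5-min recovery (Hist1h2ad, 0.0266, and Hist1h4h, 0.0273), 131 of all genes passed, and 20 in place of 13 were lower at the unadjusted p, against 6.99% of all genes. In steady state the block gave Hist1h3c an unadjusted p of 0.00662 and Hist1h3g one of 0.0178, from 0.148 and 0.299, with adjusted p of 0.129 and 0.174. At an unadjusted p the block gave 9 in place of 3 lower genes for the change of the effect at 5 min, against 5.13% in place of 3.97% of all genes. At 10 min it gave 6 in place of 1, against 1.76% in place of 1.23% of all genes. Deviations of same-numbered libraries correlated at 0.115, 0.146 and 0.0972 over all genes and at 0.342, 0.19 and 0.10 over histone genes in the 3 conditions. With only 2 pairs per comparison and no label that ties them, the numbers were not treated as pairs.

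In a fit of all 12 libraries Hist1h2ad was the 1 histone gene to pass, at 5 min (0.0106) and at 10 min (0.0455), where 5.19% and 2.23% of all genes passed. With a pseudocount of 1 it was the 1 histone gene to pass for the change at 10 min (0.0425), among 3 of all genes. For 3 alternatives chosen after seeing the data, removing the GC trend moved the 10-min median to -0.42 and the steady-state median to -0.22, with 12 in place of 6 genes lower at an unadjusted p at 10 min and 6 in place of 0 in steady state, against 4.78% and 3.56% of all genes. Centring on other short genes moved these medians to -0.46 and -0.16 and those counts to 15 and 5, against 43.8% and 12.9% of all genes, and let 7 histone genes pass at 10 min, among 1732 of all genes, whose own median moved from 0.06 to -0.33. Leaving out the genes counted over introns set the summed RPKM to 200.9 in WT at 5 min, and to 95.1 in WT and 87.9 in the libraries labelled EloA null at 10 min. Read number limits single genes: 21 of 48 histone genes tested at 5 min had a mean of 20 reads or more, and 6 of these were lower at an unadjusted p.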
